A study of Mus musculus with 6 samples.

Results

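The genes described here are 10 transcription factors that mark the mesenchyme, the embryonic connective tissue, of particular organs: Wt1, Tcf21, Gata2, Gata4, Gata6, Tbx4, Tbx5, Foxf1, Prrx1 and Twist1. They were chosen by name, and all 10 were matched to 1 row each of a table of 51912 genes. RNA was sequenced from primary mouse fibroblasts taken at an age of 6 weeks and kept for 48 h with the chemokine CXCL3 (3 libraries) or as controls (3 libraries). The chemokine is a secreted ligand of the receptor CXCR2, and the study's title places the cells in work on myofibroblasts and pancreatic cancer spread. The labels give neither the organ, the strain or genotype, nor the dose, nor whether replicates came from separate cultures or animals, so p-values measure only the spread between these libraries, which may be technical.

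Fibroblasts keep a record of the organ they formed in as a set of transcription factors laid down in the embryo. Factors of the splanchnic mesoderm and its mesothelial lining, such as WT1, the GATA zinc finger proteins GATA4 and GATA6, and the forkhead protein FOXF1, mark the stroma of gut, liver, pancreas and body cavity. TBX5 marks forelimb, heart and lung, TBX4 marks hindlimb and lung, and TCF21 marks stromal cells of lung, kidney, spleen and heart. PRRX1 and TWIST1 are broader factors of limb, head and activated fibroblast mesenchyme, and GATA2 is best known from blood progenitors, mast cells, endothelium and uterine stroma.

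The RefSeq promoter table (build GRCm38.p6, 250 bases before to 50 after a start) held windows for 5 of the 10 members, Gata2 (at 2 starts), Prrx1, Tbx4, Tcf21 and Twist1, and not for Wt1, Gata4, Gata6, Tbx5 and Foxf1. The windows of Gata2 and Prrx1 are printed here because these were the members whose CXCL3 and control libraries did not overlap. Capitals mark matches, on either strand, to the motifs searched, which were the GATA motif as AGATAA or TGATAA or AGATAG or TGATAG, the E-box CANNTG, the T-box motif GGTGTG, the forkhead motif as GTAAACA or ATAAACA, the homeobox motif TAATTA and GCGTGGG, the motif of WT1 and EGR proteins.
Gata2, upstream start, chr6:88193641-88193940, plus strand: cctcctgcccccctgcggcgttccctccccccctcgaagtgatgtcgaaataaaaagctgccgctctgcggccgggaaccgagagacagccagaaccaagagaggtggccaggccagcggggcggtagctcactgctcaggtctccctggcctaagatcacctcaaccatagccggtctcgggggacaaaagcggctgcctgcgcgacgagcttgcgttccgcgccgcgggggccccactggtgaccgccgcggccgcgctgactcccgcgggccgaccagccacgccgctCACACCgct
Gata2, downstream start, chr6:88198414-88198713, plus strand: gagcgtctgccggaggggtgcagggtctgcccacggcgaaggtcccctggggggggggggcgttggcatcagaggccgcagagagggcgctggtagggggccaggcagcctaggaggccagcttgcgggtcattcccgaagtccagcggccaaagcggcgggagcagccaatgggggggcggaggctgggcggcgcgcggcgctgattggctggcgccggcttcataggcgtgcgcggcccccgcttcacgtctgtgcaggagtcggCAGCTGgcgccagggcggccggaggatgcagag
Prrx1, chr1:163313601-163313900, minus strand: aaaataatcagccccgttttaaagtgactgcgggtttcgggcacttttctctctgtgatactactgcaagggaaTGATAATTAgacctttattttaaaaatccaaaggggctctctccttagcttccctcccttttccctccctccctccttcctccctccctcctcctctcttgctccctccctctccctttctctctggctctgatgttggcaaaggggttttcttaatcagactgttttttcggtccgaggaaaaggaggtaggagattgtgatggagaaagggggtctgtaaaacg
Neither Gata2 window held a GATA match, which 29.8% of the 32851 promoter windows of all genes did. The upstream Gata2 window had 1 T-box match, at bases 292 to 297 from its 5′ end (19.0% of all windows hold 1 or more), and the downstream window had 1 E-box, CAGCTG, at bases 268 to 273 (72.3%). In the Prrx1 window a GATA match at bases 75 to 80 overlapped a homeobox match at bases 78 to 83 (5.29% of all windows hold a homeobox match). The Gata2 windows were rich in G and C (69.3% and 73.7%, with 32 and 29 CpG dinucleotides), as was that of Twist1 (66.0%), against a median of 52.7% over all windows. Those of Prrx1 (47.7%), Tbx4 (59.0%) and Tcf21 (53.3%) held 6, 8 and 8 CpG dinucleotides. Matches of letters are a description and not binding sites.

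The cultures expressed most of these factors at once, and the order of the levels, in TPM (each gene's share of the transcripts of a library, scaled by transcript length), was Prrx1, Wt1, Twist1, Gata6, Foxf1, Gata2, Gata4, Tbx4, Tbx5 and Tcf21. Prrx1 had the highest level in every library, with a mean of 59.3 TPM over the 6 libraries, and 81.4% of the 12024 protein-coding genes kept ranked lower. Wt1 (29.2 TPM), Twist1 (22.0 TPM) and Gata6 (19.1 TPM) followed. Wt1 lay above Twist1 in 5 of 6 libraries, the exception being control 2, and Twist1 above Gata6 in 4 of 6, and the ranges of both pairs overlapped. Foxf1 (14.6 TPM), Gata2 (14.2 TPM) and Gata4 (8.32 TPM) came next. The range of Gata2 overlapped those of Foxf1 and Gata4, while Prrx1 lay above Wt1, Gata6 above Foxf1 and Gata4 above Tbx4 in 6 of 6 libraries without overlap. Tbx4 lay near 1 TPM and ranked above only 0.349% of the coding genes kept.

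Tbx5 and Tcf21 were at or next to 0, and Tbx4 lay near 1 TPM. Tbx5, which is needed for forelimb and heart formation, was listed at 0.02, 0.03 and 0 TPM in CXCL3 libraries 1, 2 and 3, and at 0.04, 0 and 0.02 TPM in controls 1, 2 and 3. Tcf21, a helix-loop-helix factor of visceral stroma, was listed at 0, 0.06 and 0 TPM in CXCL3 libraries and at 0 TPM in all 3 controls. Tbx4, the relative of Tbx5 in hindlimb and lung, had 1.25, 0.88 and 1.04 TPM in CXCL3 libraries, against 1.25, 0.70 and 0.58 TPM in controls. The ratio of Tbx5 to Tbx4 was at most 0.0341 in CXCL3 libraries and at most 0.0345 in controls.

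**Figure D1:**
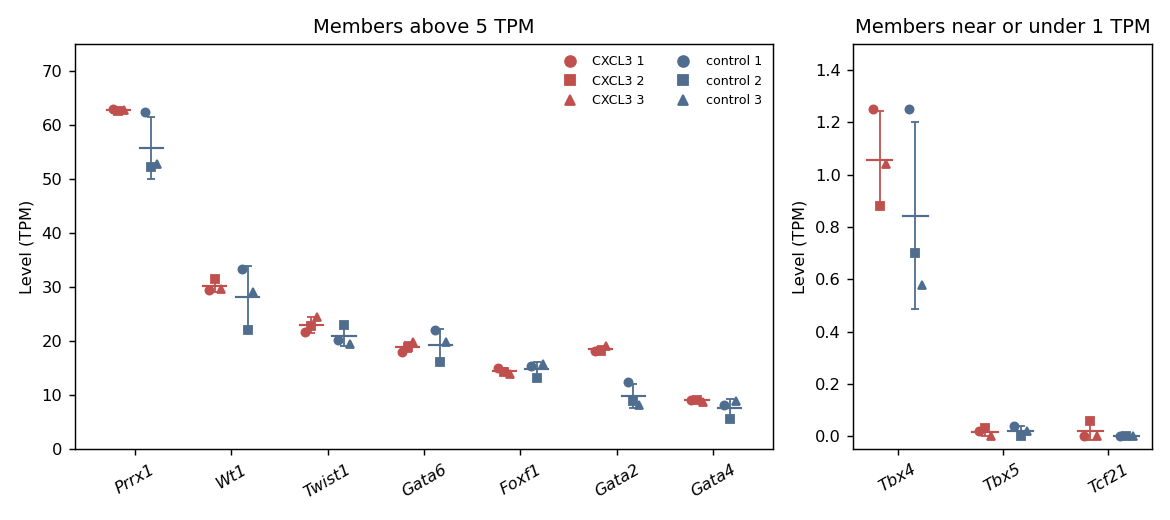
Level of each of the 10 factors in TPM in every library, CXCL3 in red left of control in blue, with a symbol for each replicate number, a bar for the mean and a whisker for the SD of 3 libraries; the right panel has its own scale. Gata2 is the factor whose groups lie farthest apart (18.13 to 19.13 TPM with CXCL3, 8.29 to 12.45 TPM in controls), and Tbx5 and Tcf21 lie next to 0.

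Before the comparison, some libraries stood apart. In the first principal component, which held 52.9% of the variance, controls 2 and 3 (36.6 and 26.6) lay away from control 1 (-19.2), which lay beside the CXCL3 libraries (-18.7 to -9.39). Relative to the mean of all libraries, long transcripts were low in controls 2 and 3 (Spearman correlation with length across genes -0.502 and -0.478) and high in control 1 (0.45) and the CXCL3 libraries (0.199 to 0.401), which is across genes and not across replicates. The labels give all libraries the same collection date, so no batch can be told from them. TPM keeps no read depth, and no counting interval can be given. Over all 13139 genes tested, limma called 21 at a Benjamini-Hochberg adjusted p under 0.05, which is 0.16%.

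None of the 8 members tested passed that threshold (limma, adjusted p between 0.133 for Gata2 and 0.946 for Gata6), and 1 of the 8, Gata2, had an unadjusted p under 0.05, against 11.6% of all genes tested. The 8 are Wt1, Gata2, Gata4, Gata6, Tbx4, Foxf1, Prrx1 and Twist1, which had at least 1 TPM in at least 3 libraries. Tbx4 met that minimum through CXCL3 libraries 1 and 3 and control 1, and Tbx5 and Tcf21 did not meet it and were not tested. The groups of Gata2 and Prrx1 did not overlap, both with CXCL3 higher, as for 7.92% of all genes tested (17.2% in either direction). Across the 8 members the median log2 fold change on log2(TPM + 1) was 0.15, where that of all genes tested was 0.07, with 6 positive and 2 negative.

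Gata2 (ENSMUSG00000015053, chr6:88193891-88207032, GRCm38, plus strand) had the largest difference among the 8 members. It stood at 18.13, 18.19 and 19.13 TPM in CXCL3 libraries 1, 2 and 3, against 12.45, 9.02 and 8.29 TPM in controls 1, 2 and 3. The lowest CXCL3 library lay 1.46-fold above the highest control. The CXCL3 libraries lay closer to each other than the controls did, as over all genes tested (median SD of log2 values 0.0861 with CXCL3 and 0.203 in controls). The means were 18.5 ± 0.561 TPM with CXCL3 and 9.92 ± 2.22 TPM in controls (SD, n = 3 each), a 1.86-fold difference. In the fit across all genes the log2 fold change was 0.85 ± 0.15 (SE; 95% interval 0.50 to 1.21; limma, adjusted p = 0.133). By size it was number 119 from the top of 13139 genes. An exact two-sided permutation test over the 6 libraries gave p = 0.1, the smallest that 3 against 3 libraries can reach.

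The values of Gata2 were set against the libraries that stood apart. Control 1, which lay with the CXCL3 libraries on the first component, had 12.45 TPM, and the CXCL3 mean lay 1.48-fold above it. Without controls 2 and 3 the log2 fold change was 0.53 (limma, adjusted p = 0.0937, where the lone control is assumed to vary like the CXCL3 libraries). With each library's trend along transcript length and GC content removed, Gata2 passed (log2 fold change 0.72 ± 0.09 SE, limma, adjusted p = 0.0394, higher in 3 of 3 CXCL3 libraries). The values were then 16.9, 17.2 and 18.8 TPM with CXCL3 and 11.2, 10.4 and 9.31 TPM in controls. It also passed without control 1 (limma, adjusted p = 0.00408) and with library weights (0.0138), which gave control 1 the smallest weight (0.171). Of all 13139 genes tested, 4254 passed without control 1 and 1446 with library weights. These counts apply to every gene said below to pass in these settings. Over all 20 alternatives the log2 fold change of Gata2 lay between 0.53 and 1.01 and its adjusted p between 0.00408 and 0.573.

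The groups of the other GATA members overlapped. Gata6 (ENSMUSG00000005836, chromosome 18), which directs heart, gut and peritoneal macrophage programmes, had 17.92, 19.02 and 19.89 TPM in CXCL3 libraries, against 22.01, 16.15 and 19.85 TPM in controls. The controls spanned the CXCL3 values on both sides. Its log2 fold change was -0.02 (95% interval -0.32 to 0.28, adjusted p = 0.946 by limma), and the sign turned in 4 of 20 alternatives. Gata4 (chr14:63198922-63271692), its partner in heart and visceral mesenchyme, had 9.18, 9.20 and 8.85 TPM with CXCL3, against 8.19, 5.66 and 8.87 TPM in controls. Only control 2 lay far below the rest. The difference of 0.25 ± 0.17 (SE; interval -0.14 to 0.65) did not pass (limma, adjusted p = 0.506).

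Within a library the ratio of 2 genes does not depend on how TPM is scaled. Gata6 over Gata2 was 0.988, 1.05 and 1.04 in CXCL3 libraries 1, 2 and 3, against 1.77, 1.79 and 2.39 in controls, with no overlap. Gata6 over Gata4 was 1.95, 2.07 and 2.25 with CXCL3, against 2.69, 2.85 and 2.24 in controls, and the groups touched at control 3. Of the summed TPM of the 3 GATA members, a share computed after the values were seen, Gata2 made up 39.7 ± 0.483% with CXCL3 and 26.9 ± 3.94% in controls (SD, n = 3 each). Gata4 made up 19.5 ± 0.938% with CXCL3 and 20.5 ± 3.02% in controls. With the length and GC trend removed the mean ratio of Gata6 to Gata2 was 1.03 with CXCL3 and 1.97 in controls, close to 1.02 and 1.98 without that step. That step could hardly move this ratio. The longest transcripts of Gata2 and Gata6 are alike in length (3571 and 3784 bases) and GC content (58.2% and 55.3%).

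**Figure D2:**
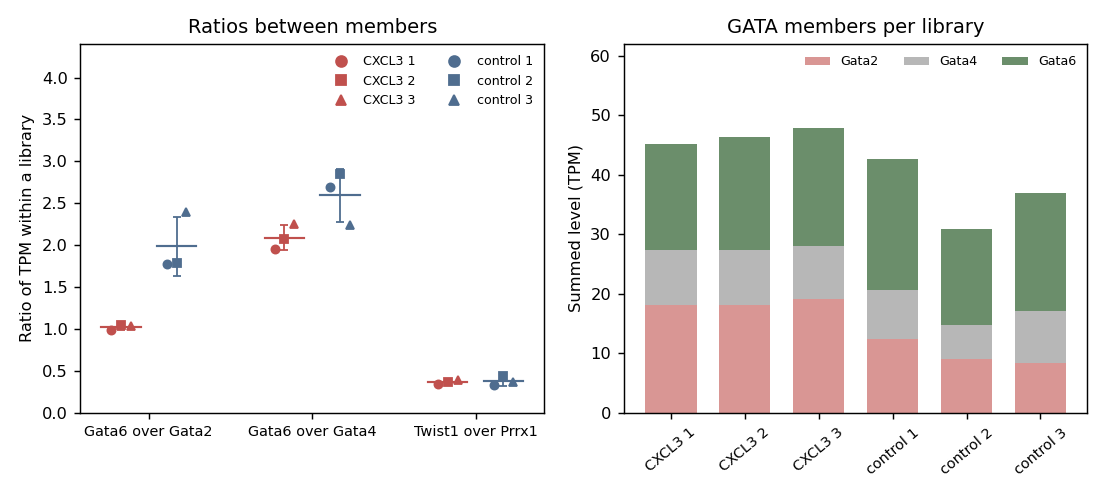
Left, ratios of TPM between members in each library, CXCL3 in red left of control in blue, with mean and SD of 3 libraries. Right, the summed TPM of Gata2, Gata4 and Gata6 in each library; the Gata6 to Gata2 ratio is 0.988 to 1.05 with CXCL3 and 1.77 to 2.39 in controls.

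Prrx1 (ENSMUSG00000026586, chr1:163245119-163313710, minus strand), the homeobox factor of limb and fibroblast mesenchyme, had 62.90, 62.56 and 62.77 TPM in CXCL3 libraries, against 62.43, 52.22 and 52.80 TPM in controls. Control 1 lay next to the CXCL3 libraries and controls 2 and 3 lay below. The log2 fold change was 0.17 ± 0.09 (SE; 95% interval -0.04 to 0.38; limma, adjusted p = 0.466; exact permutation p = 0.1, the smallest possible). It passed without control 1 (0.25, adjusted p = 0.0145), was 0.01 without controls 2 and 3, and was -0.03 with the length and GC trend removed. Its longest annotated transcript has 6527 bases. Over the 6 libraries the genes with the most similar profile among 9842 others with a mean of at least 5 TPM were Ccnl1, Yme1l1 and Rbm15b, with a root mean square difference of centred log2 values of 0.011, 0.0119 and 0.0183.

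Twist1 (chr12:33957671-33959829), the helix-loop-helix factor of cranial and limb mesenchyme, had 21.68, 22.86 and 24.49 TPM with CXCL3, against 20.30, 22.98 and 19.50 TPM in controls. The groups overlapped at control 2, and the log2 fold change of 0.13 ± 0.10 (SE; 95% interval -0.11 to 0.37) did not pass (limma, adjusted p = 0.549). Twist1 over Prrx1 was 0.367 ± 0.0228 with CXCL3 and 0.378 ± 0.058 in controls (SD, n = 3 each), and with the length and GC trend removed 0.399 with CXCL3 and 0.346 in controls. The profiles most like that of Twist1 were those of Klf2, Vrk2 and Cnp (root mean square difference 0.0366, 0.0377 and 0.0484 over 6 libraries).

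Wt1 (chr2:105126529-105173616), the zinc finger factor of mesothelium, kidney and gonad, had 29.52, 31.60 and 29.69 TPM in CXCL3 libraries, against 33.34, 22.11 and 29.11 TPM in controls. Control 1 was the highest of the 6 and control 2 the lowest. Its log2 fold change was 0.12 ± 0.15 (SE; 95% interval -0.22 to 0.46; limma, adjusted p = 0.693), and it was -0.14 without controls 2 and 3. Its nearest profiles were those of Elk1, Rad23b and Stx2 (0.0182, 0.0212 and 0.0294). The antisense gene Wt1os starts 19 bases from Wt1 without overlapping it and lay between 0.96 and 1.62 TPM. Foxf1 (chr8:121084386-121088144), the Hedgehog-responsive factor of gut and lung mesenchyme, had 15.01, 14.33 and 14.00 TPM with CXCL3, against 15.43, 13.24 and 15.81 TPM in controls. The CXCL3 values lay within the control range (log2 fold change -0.03, 95% interval -0.29 to 0.23; limma, adjusted p = 0.892). Its level is uncertain because the annotated gene Gm20388 (29.17 to 47.28 TPM) overlaps it on the same strand. Gata6 is overlapped on the other strand by 1010001N08Rik (1.72 to 4.09 TPM), and the counting is not stated to use strand. The divergent non-coding neighbour of Foxf1, Fendrr, lay between 0.56 and 1.18 TPM.

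**Figure D3:**
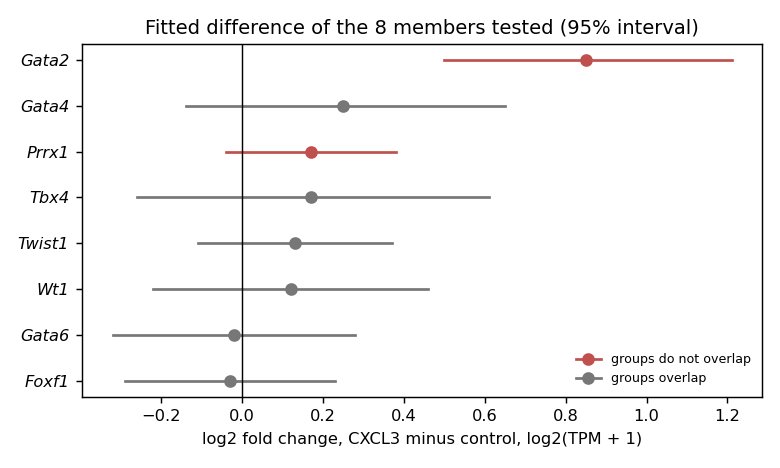
Log2 fold change of the 8 members tested, CXCL3 minus control on log2(TPM + 1), with 95% intervals from limma; red marks members whose groups do not overlap. The interval of Gata2 (0.50 to 1.21) is the only one of the 8 that lies clear of 0, and that of Prrx1 reaches from -0.04 to 0.38.

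**Figure D4:**
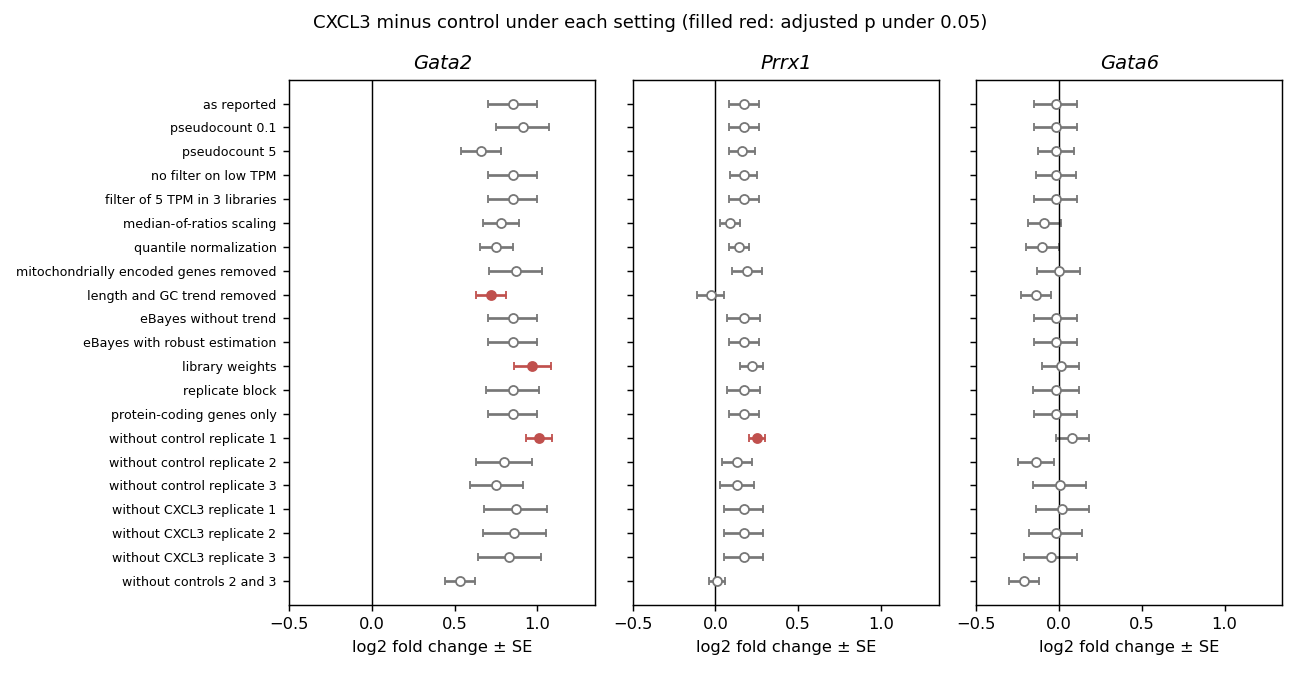
Log2 fold change with SE of Gata2, Prrx1 and Gata6 under each setting, where filled red points have an adjusted p under 0.05. Gata2 stays between 0.53 and 1.01, Prrx1 lies between -0.03 and 0.25, and Gata6 between -0.21 and 0.08.

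Relatives and partners of these factors gave no call either. Of 129 genes in 9 lists, 128 were matched (Tbxt was not), 76 were tested, 0 passed in either direction by limma, and 9 had an unadjusted p under 0.05 (11.6% of all genes tested). Their median log2 fold change was 0.12, where that of all genes was 0.07.

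Among 6 tested GATA factors and cofactors the smallest p belonged to Trps1, Gata3 and Lmo2 (log2 fold change 0.30, 0.24 and 0.14; limma, adjusted p = 0.487, 0.568 and 0.606). Gata1 and Gata5 were listed at 0 TPM in all libraries, and the GATA2 partner Tal1 lay between 0.24 and 0.58 TPM. Other cofactors of that list were higher, with Lmo2 between 20.28 and 28.14 TPM and Ldb1 between 102.56 and 114.73 TPM. Zfpm2, the cofactor of GATA4 in heart and gonad, had 8.05, 8.19 and 7.47 TPM with CXCL3, against 9.66, 4.85 and 5.97 TPM in controls, and the groups overlapped.

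Of the other T-box factors, 4 of 13 matched were tested. Tbx3 led them with 14.44, 14.23 and 15.05 TPM in CXCL3 libraries, against 15.53, 11.32 and 11.37 TPM in controls. It was far above Tbx4 and Tbx5 in all 6 libraries. Neither Tbx3 nor Mga or Tbx18 passed (log2 fold change 0.19, 0.59 and 0.11; limma, adjusted p = 0.526, 0.54 and 0.753).

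The forkhead relative Foxf2, which acts beside FOXF1 in gut mesenchyme, had 10.70, 11.59 and 10.40 TPM with CXCL3, against 9.13, 8.54 and 8.15 TPM in controls. Its groups did not overlap, but it did not pass (log2 fold change 0.31 ± 0.11 SE, limma, adjusted p = 0.386; 0.0298 without control 1). Foxq1 averaged 1.75 ± 0.0781 TPM with CXCL3 and 1.01 ± 0.0794 TPM in controls (SD, n = 3 each; log2 fold change 0.45; limma, adjusted p = 0.321, and 0.0362 without control 1), and Foxm1, a cell cycle factor, had a log2 fold change of 0.49 (adjusted p = 0.446). Over the alternatives the log2 fold change of Foxf2 lay between 0.19 and 0.35 (adjusted p up to 0.808) and that of Foxq1 between 0.17 and 0.74 (up to 0.796). Foxc2, a vascular and skeletal mesenchyme factor, lay lower without overlap, with 1.72, 1.87 and 1.58 TPM with CXCL3, against 1.90, 2.17 and 2.12 TPM in controls (-0.17; limma, adjusted p = 0.562). In all, 0 of 9 forkhead relatives tested passed, and 2 of 9 had an unadjusted p under 0.05, against 11.6% of all genes tested.

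Of the homeobox relatives, 12 of 25 were tested and none passed (0 with an unadjusted p under 0.05). The Prrx1 paralog Prrx2 had 9.16, 9.14 and 8.17 TPM with CXCL3, against 7.41, 7.91 and 7.09 TPM in controls, without overlap (log2 fold change 0.21, limma, adjusted p = 0.473). En1, a dermal and midbrain factor, lay lower without overlap (-0.26, adjusted p = 0.464), and Meis1 had 0.15 (0.494). The helix-loop-helix partner Tcf3, with which TWIST1 forms dimers, averaged 41.5 ± 1.28 TPM with CXCL3 and 33.2 ± 5.04 TPM in controls (SD, n = 3 each; log2 fold change 0.32, limma, adjusted p = 0.375). It passed without control 1 (limma, adjusted p = 0.00612), as did 4254 of all 13139 genes tested. It also passed with library weights (0.0366), as did 1446 genes. The log2 fold change of Tcf3 was 0.09 without controls 2 and 3, and its adjusted p reached 0.811 over the alternatives. Tcf12 and Scx had 0.42 and 0.30 (adjusted p = 0.443 and 0.48). The paralog Twist2 had 4.97, 4.90 and 5.09 TPM with CXCL3, against 4.42, 6.33 and 6.46 TPM in controls.

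Among 16 tested factors of other mesenchymal programmes, Sox4, Runx2 and Sox9 had the smallest p (log2 fold change 0.68, 0.56 and 0.32; limma, adjusted p = 0.426, 0.426 and 0.429). Sox4 had 73.41, 72.22 and 64.84 TPM with CXCL3, against 73.14, 36.00 and 30.64 TPM in controls, so that control 1 lay among the CXCL3 libraries, and it passed without control 1 (1.05, adjusted p = 0.00408) but was -0.06 without controls 2 and 3. Runx2 passed without control 1 too (0.82, limma, adjusted p = 0.00902) but was 0.04 without controls 2 and 3. Without control 1, 4254 of all 13139 genes tested passed. Of 4 WT1 cofactors tested, Cited2 and Basp1 lay higher with CXCL3 without overlap, as did 7.92% of all genes tested. Their log2 fold changes were 0.24 and 0.11 (limma, adjusted p = 0.375 and 0.478), and that of Basp1 was 0.03 with median-of-ratios scaling. The others overlapped, among them Pawr (log2 fold change 0.09, limma, adjusted p = 0.729).

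In the retinoic acid pathway, which acts upstream of Gata4 and Gata6 in several tissues, 0 of 12 genes tested passed, and 2 had an unadjusted p under 0.05, against 11.6% of all genes tested. A log2 fold change below 0 was found for 8 of the 12, against 37.7% of all genes tested, and 4 lay lower without overlap, against 9.31%, with a median of -0.09 where that of all genes was 0.07. The binding protein gene Crabp2 had 68.92, 67.72 and 65.10 TPM with CXCL3, against 84.48, 101.01 and 94.71 TPM in controls (log2 fold change -0.46 ± 0.08 SE; limma, adjusted p = 0.134). Dhrs3, a retinaldehyde reductase, averaged 51.6 ± 2.26 TPM with CXCL3 and 69.2 ± 7.18 TPM in controls (SD, n = 3 each; log2 fold change -0.41; limma, adjusted p = 0.216). Neither gene overlapped between groups. Crabp2 and Dhrs3 passed without control 1 (limma, adjusted p = 0.00477 and 0.00524), as did 4254 of all 13139 genes tested. They also passed with library weights (0.0196 and 0.0282), as did 1446 genes. Without controls 2 and 3 the log2 fold changes of Crabp2 and Dhrs3 were -0.33 and -0.24. Over the alternatives their adjusted p reached 0.586 and 0.744. Aldh1a2, the retinoic acid synthesis enzyme of mesothelium and visceral mesenchyme, stood at 34.01, 34.72 and 34.04 TPM with CXCL3, against 37.18, 35.69 and 36.22 TPM in controls (-0.08; adjusted p = 0.594).

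In the Hedgehog pathway, which controls Foxf1, 0 of 7 genes tested passed and 0 had an unadjusted p under 0.05. Gli3, Smo and Sufu had log2 fold changes of 0.47, 0.30 and 0.26 (limma, adjusted p = 0.449, 0.472 and 0.523), and all 3 were below 0 without controls 2 and 3 (-0.0015, -0.04 and -0.14). The ligand gene Shh was listed at 0 TPM in all libraries and the target gene Gli1 at 0 to 0.09 TPM.

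Markers of cell types that the cultures could hold were read in the same libraries. Of 9 fibroblast markers, 8 had at least 1 TPM in at least 3 libraries, and their list summed to 3226 to 3324 TPM with CXCL3 and 3129 to 4175 TPM in controls, while Lum, a fibroblast proteoglycan, lay at 0.06 to 0.50 TPM. The collagen gene Col3a1 of that list was 1 of the 21 genes called over all genes (196 ± 7.91 TPM with CXCL3 and 407 ± 56.5 TPM in controls, SD, n = 3 each; log2 fold change -1.05; limma, adjusted p = 0.0293). The fibroblast markers went both ways. Of the 9, 3 lay lower without overlap (Col3a1, Dcn and Lum, which was not tested). Vim lay higher without overlap (1671.29 to 1709.13 TPM with CXCL3 and 1395.16 to 1650.25 TPM in controls), and 5 overlapped. Macrophage markers were more abundant, with 10 of 11 at that level and a sum of 14749 to 14835 TPM with CXCL3 and 15043 to 18026 TPM in controls, mostly from Lyz2. The macrophage sums did not overlap between groups, with CXCL3 lower, but the markers went both ways. Of the 11, 5 lay lower without overlap (Lyz2, C1qa, C1qb, C1qc and Cx3cr1), 1 lay higher without overlap (Mrc1, 16.02 to 18.05 TPM with CXCL3 and 9.80 to 13.39 TPM in controls), and 5 overlapped. Cx3cr1 lay at 0.39 to 1.38 TPM, under the minimum, and was not tested. Over all genes tested, 9.31% lay lower without overlap and 7.92% higher. C1qa, a complement gene, was called lower (log2 fold change -0.78; limma, adjusted p = 0.0493). The part of these cells in the values of Gata2 and the other members was not tested. Markers of large peritoneal macrophages, a known site of Gata6, summed to 2.76 to 5.11 TPM with CXCL3 and 2.98 to 3.69 TPM in controls. At the level given were 2 of 8, Prg4 (0.99 to 1.58 TPM) and Vsig4 (0.38 to 1.09 TPM), and Timd4 was listed at 0 TPM in all libraries. Of the 8, 2 lay higher without overlap, 2 lay lower without overlap and 4 overlapped. Wt1 marks mesothelium, whose 11 other markers summed to 2.68 to 2.78 TPM with CXCL3 and 2.01 to 2.41 TPM in controls, with 0 of 11 at that level. Mast cell markers, a known site of Gata2, summed to 0.38 to 0.52 TPM with CXCL3 and 0.42 to 1.46 TPM in controls, with Cpa3 and Fcer1a listed at 0 TPM in all libraries. Endothelial markers summed to 4.90 to 6.47 TPM with CXCL3 and 3.51 to 7.15 TPM in controls, with 2 of 9 at that level. These were Vwf (1.85 to 4.45 TPM) and Kdr (0.71 to 1.32 TPM), while Cldn5 was listed at 0 TPM. In a bulk culture fewer cells of a type and less RNA per cell cannot be told apart.

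**Figure D5:**
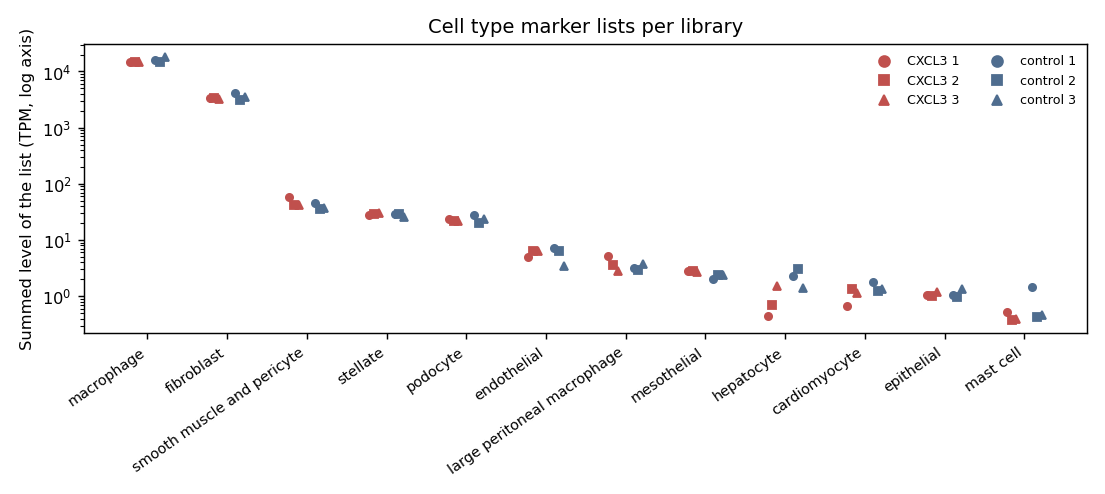
Summed TPM of each cell type marker list in every library on a log axis, CXCL3 in red left of control in blue; lists with a sum of 0 in any library are left out. Macrophage (14749 to 18026 TPM) and fibroblast (3129 to 4175 TPM) lists lie far above the mesothelial (2.01 to 2.78 TPM) and mast cell (0.38 to 1.46 TPM) lists.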

How the data were processed

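RNA sequencing of 3 CXCL3 and 3 control libraries was analysed from a deposited table of TPM (RSEM, by the file's name) with 1 column per library (0 unmapped). Of the upstream steps, fastp, HISAT, RSEM and the build GRCm38.p5 are listed, per the submitters' processing notes, with tool versions, strand setting and annotation release not given in the sources used here. Column sums were 984281 to 986705 TPM. GENCODE mouse M21 (GRCm38) gave symbols for 51719 of 51912 genes. Genes with at least 1 TPM in at least 3 libraries (13139) entered a limma 3.58.1 fit of log2(TPM + 1) (R 4.3.3, eBayes with trend), CXCL3 minus control, two-sided, Benjamini-Hochberg over all. Changes of low genes come out too small on this scale.

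The fit was tested on simulated data, in 5 runs with 200 changed genes each. It called 28.4% of 1.5-fold, 68.1% of 2-fold and 94.5% of 4-fold changes, and the mean number of false calls was 6.4. Many changes under 2-fold would thus be missed, and the lack of a call does not show the lack of a change. These rates may not carry over to the real libraries, where controls varied more and a trend with transcript length was present. All 10 members were named, and up to 3 genes per companion list by smallest p, the 3 nearest profiles of the 3 highest members, and neighbours. Others named (Gata1, Gata5, Tal1, Ldb1, Zfpm2, Twist2, Foxc2, Aldh1a2, Shh, Gli1) were chosen after their values were seen. Members and lists were chosen with earlier results of these data known. Of the genes that the naming rule selects, 1 is not reported here. Protein features were not used here.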

Additional observations from a re-analysis of the deposited data

How the results depend on the processing

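The count of 21 genes called (4 higher, 17 lower) was 0 with no filter on low TPM and at an adjusted p under 0.01, 5 with median-of-ratios scaling (0 higher, 5 lower), 1 with eBayes without trend, 49 with the length and GC trend removed, 84 without controls 2 and 3, and 1446 with library weights (1046 higher, 400 lower). Leaving out 1 library gave 0 to 4254 genes, the highest without control 1 (3312 higher, 942 lower). The count of members called was 1 (Gata2) with library weights and likewise after removal of the length and GC trend, 0 to 2 with 1 library left out, where both (Gata2 and Prrx1) came without control 1, and 0 in the other settings. The count of companion genes called was 11 with library weights and 0 to 26 with 1 library left out, the highest without control 1. Same-numbered libraries had correlations of deviations across genes of 0.122, -0.0112 and 0.0775. With 3 libraries per group these values cannot tell whether same-numbered libraries share an origin. With the replicate block 12 genes and 0 members were called. 

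Gata2, Gata4 and Twist1 kept their sign in all 20 alternatives. Reversed, all with adjusted p above 0.05, were Prrx1 (-0.03), Tbx18 (-0.03) and Meis1 (-0.06) with the length and GC trend removed, Tbx18 (-0.01) and Pawr (-0.03) with quantile normalization, and Gata6 with library weights (0.01). Without 1 library, Gata6 ranged from -0.14 to 0.08 (0.08 without control 1, 0.0045 without control 3, 0.02 without CXCL3 library 1), Wt1 from -0.04 to 0.24, Foxf1 from -0.11 to 0.01 and Pawr from -0.02 to 0.16. Without controls 2 and 3, Wt1 was -0.14, Tbx4 -0.13, Trps1 -0.05, Lmo2 -0.06, Tbx3 -0.09, Mga -0.23, Tbx18 -0.19, Foxm1 -0.03, Sox4 -0.06, Pawr -0.0048, Gli3 -0.0015, Smo -0.04 and Sufu -0.14. The cause of these changes was not tested. Tbx4 has no value with a filter of 5 TPM. The lack of read depth limits what can be said of Tbx4, Tbx5 and Tcf21.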
